A study of Mus musculus with 4 samples.

Results

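Spliced regions in the genes for ribosomal proteins and translation factors were taken from lists of candidate regions for mouse embryonic fibroblasts (MEFs). A region belongs here when its gene symbol starts with Rpl, Rps, Mrpl, Mrps, Eif or Eef. *Eif2ak3* and the Rps6k kinases were left out, which removed 1 region, in *Rps6kb2*. The rule found 83 regions in 62 genes among the 2588 regions of the series. All 83 are in the list of the dithiothreitol (Dtt) experiment, where they make up 3.28% of 2533 regions. In the thapsigargin (Tg) list the rule found 0 of 55 regions, and a count of 0 there allows a share of up to 5.45%, taken as 3 regions of 55.

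The study compared *Ire1*α heterozygous (Het) with knockout (KO) MEFs of the C57BL/6 strain, to look for mRNA regions removed only when *Ire1*α is present. There were 4 libraries, 1 per genotype in each of 2 experiments, so no value has a replicate. Het cells received 500 nM Tg or 1 mM Dtt for 4 hours. The sample labels call both KO samples untreated, whereas the paper's methods describe the same treatments for KO and Het cells. The Tg cells came from embryos of day 9 and carry a floxed *Ire1*α allele without the kinase domain in the KO, and the Dtt KO cells carry another null allele that lacks the kinase and RNase domains. Reads were single-end, of 35 nt in Tg and 79 nt in Dtt. Read length, the number of reads sequenced, the time of the experiment, treatment and allele therefore differ together between the experiments, and their parts in the 0 of 55 and 83 of 2533 cannot be told apart. Each list gives the number of supporting reads in the Het sample, 135 in all for Tg and 6436 for Dtt. The KO columns hold no number, because regions matched in the KO sample were removed. The lists carry no expression level, so neither the cell type nor the abundance of these mRNAs could be checked.

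Ribosomal proteins and ribosomal RNA form the subunits that read an mRNA. Cytosolic ribosomes use proteins of the Rpl (large subunit) and Rps (small subunit) genes, and mitochondrial ribosomes use those of the Mrpl and Mrps genes, which are also encoded in the nucleus. Initiation factors (Eif) bring the mRNA cap, the initiator tRNA and the small subunit together, and elongation factors (Eef) deliver tRNAs and move the ribosome along. *Ire1*α is a sensor of the endoplasmic reticulum that cuts *Xbp1* mRNA at CNGCAG loops, outside the nuclear splicing machinery.

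Of these regions, *Rps9* was supported by 80 reads (exact Poisson 95% interval 63.4 to 99.6) over a gap of 4 bp relative to mm9. *Rps9* encodes a protein of the small cytosolic subunit. Its region alone held 28.1% of the 285 reads of the 83 regions. The next region, in *Mrpl28*, a large subunit gene of the mitochondrial ribosome, had 8 reads (3.45 to 15.8), so that *Rps9* had 10 times its reads. The ratio was 5.71 to the 14 reads of *Eif4g1*, summed over its regions, and 16 to the next region of a cytosolic ribosomal protein gene. The remaining 81 regions had 2 to 5 reads, where a count of 2 has an interval of 0.242 to 7.22 and a count of 5 one of 1.62 to 11.7. Among them no order by reads can be told from counting error. Poisson intervals and shares below cover counting error only, since the libraries had no molecular identifiers and copies of a molecule may be counted again.

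The *Rps9* sequence is shown because it has more reads than any other of the 83 regions, with the bases of the gap in capitals. It is taken from mm9, as are all sequences here, and is written 5′ to 3′ on the strand of the gene.
*Rps9*, chr7:3658421-3658448, plus strand: agaggattaattAATActtggctgaact
*Rps9* (ENSMUSG00000006333.8) spans 3655595 to 3658503 on chromosome 7. Only 1 placement of the gap gives this joined sequence. In transcript *Rps9*-001 of GENCODE vM1 the gap lies in exon 5 of 5, in the 3′ UTR. It starts 2 bases after the TAA stop codon, and 67 bases follow it to the end of the transcript, so the coding sequence of this transcript was not part of the gap. The region lies in an exon of 5 of the 10 annotated *Rps9* transcripts. A gap in RNA reads can stem from the genome of the cells as well as from the mRNA, and the lists alone cannot tell these apart. The study examined the *Rps9* gap by PCR on genomic DNA, which is not part of these files and was not analysed here, so the gap is described here only as bases that the reads lack. Its bases hold neither GT-AG ends nor CNGCAG within 10 bases of either end.

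Regions under 10 bp were 23 of the 83 (27.7%, 95% Wilson interval 19.2% to 38.2%), beside 17.4% of all Dtt regions. They held 132 reads, of which 80 belong to *Rps9*, and the other 22 regions held 52. The splice length was 2 bp in 21 of them (25.3% of 83, beside 14.3%), 3 bp in an *Eef2* region and 4 bp in *Rps9*. No region lay between 4 bp and the 78 bp of *Mrpl38*, so the limit of 10 bp divides the regions clearly. The share varied between families. It was 7 of 10 regions in elongation factor genes (39.7% to 89.2%), 11 of 27 in cytosolic ribosomal protein genes (24.5% to 59.3%), 5 of 30 in initiation factor genes (7.34% to 33.6%) and 0 of 16 in mitochondrial ribosomal protein genes (up to 19.4%). Regions of 1 gene share their mRNA, and the difference between families was not tested. Of the 7 in elongation factor genes, 4 are in *Eef1a1* and 2 in *Eef2*. Without *Eef1a1*, left out after its values were seen, 3 of 6 were short (18.8% to 81.2%), an interval that overlaps that of the initiation factor genes.

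**Figure D1:**
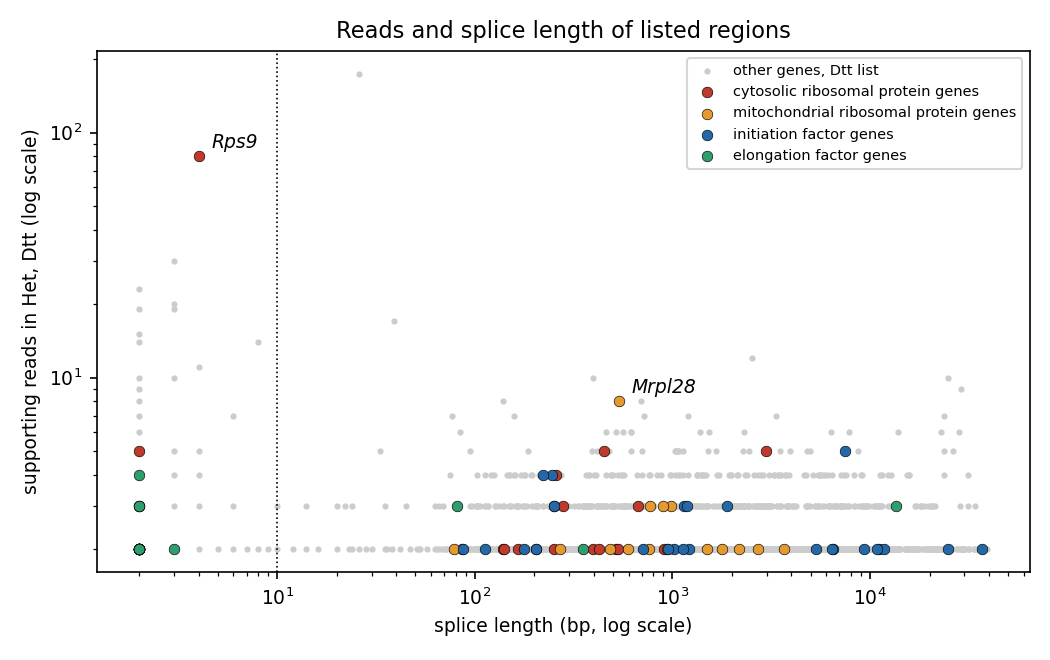
Each point is a region of the Dtt list, with its splice length in bp and its supporting reads in the Het sample, both on log scales, coloured points being ribosomal protein and translation factor genes. *Rps9* stands at 4 bp with 80 reads, *Mrpl28* at 538 bp with 8 reads, and no coloured point lies between 4 and 78 bp.

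Most short regions outside *Rps9* were not well defined in position. The list gives a lower and an upper boundary, and for 1 junction their distance is at most the splice length added to the slide, which is how many bases the gap can be moved by with the joined sequence kept. In 14 of the 23 short regions (60.9%, 40.8% to 77.8%) they lay farther apart, beside 43.0% of all short Dtt regions. Over regions of any length the share was 14 of 83 (16.9%, 10.3% to 26.3%), beside 7.94%. In these 14 the boundaries were 18 to 57 bp apart, with a median of 34.5 bp, with slides of 1 to 10 bases. All 14 were 2 bp long. *Eef1a1*, whose product carries aminoacyl-tRNA to the ribosome, had 4 such regions with 4, 3, 2 and 2 reads. *Rpsa*, a small subunit gene, had 3 reads over boundaries 49 bp apart. Other wide regions, of 2 reads each, were in *Rps14*, *Rps20*, *Rpl4*, *Rpl6*, *Rpl24*, *Rpl38*, *Eef1b2* and *Eif4g2*. A region of this kind has no single sequence, so none is shown.

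**Figure D2:**
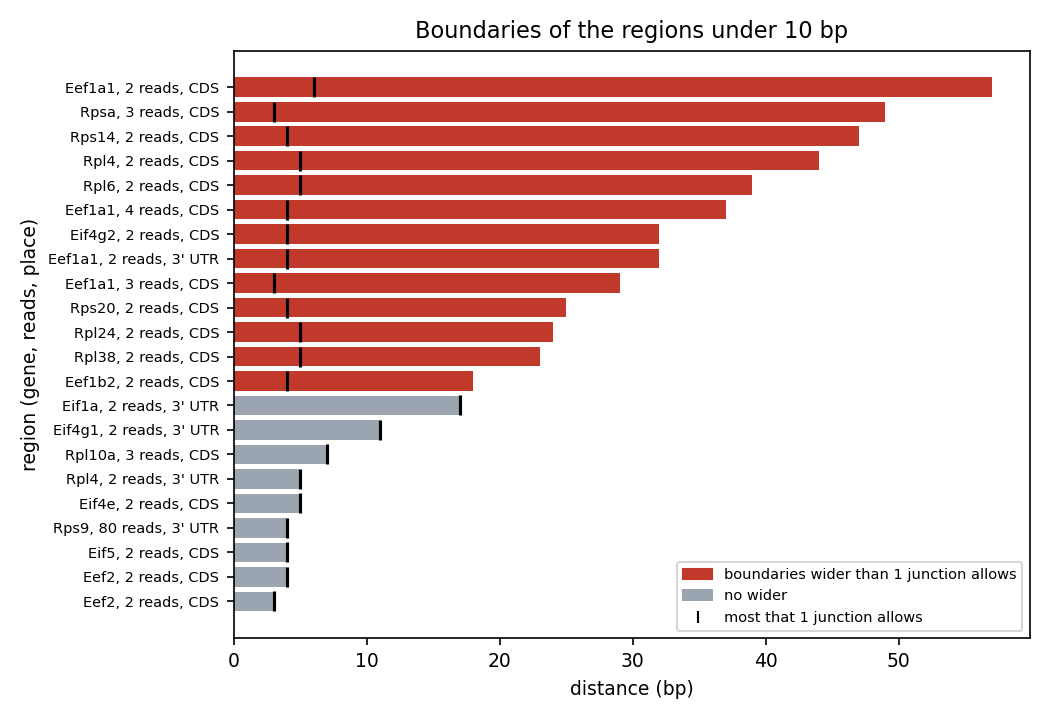
Bars give the distance in bp between the listed boundaries of 22 of the regions under 10 bp, and ticks the most that 1 junction allows. The 13 red bars run from 18 to 57 bp and pass their ticks, and the 9 grey bars, *Rps9* among them, end at their ticks.

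In 18 of the 23 short regions (78.3%, 58.1% to 90.3%) the gap, or the listed span of a wide region, overlapped coding sequence, beside 33.5% of all short Dtt regions. The other 5 of the 23 lay in the 3′ UTR (21.7%, beside 55.7%). Of the 18, 13 are wide, and any overlap of their span with coding sequence counted. Where their 2 missing bases lie is therefore not known. Wide regions were more frequent here than among all short Dtt regions, which limits the comparison of these shares. A slide of 4 or more bases, the definition of a repeat used here, was found in 5 of the 23 (21.7%, 9.66% to 41.9%), beside 41.2%. The share rests on that limit, since a slide of 2 or more bases was found in 18 of 23 (78.3%, 58.1% to 90.3%), beside 86.2%.

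Of the other 8 short regions no wider than 1 junction allows, 7 are shown for the bases that the reads lack. Capitals mark every base that the gap can cover.
*Rpl10a*, 3 reads, 2 bp, chr17:28467564-28467590, plus strand: ctccctgctgACACACAatgaaaacat
*Eif4g1*, 2 reads, 2 bp, chr16:20692675-20692701, plus strand: tgcctgggCCCCCCCCCCCtccaggat
*Eif4e*, 2 reads, 2 bp, chr3:138213876-138213902, plus strand: gggaagatgagAAAAAcaaacgaggag
*Rpl4*, 2 reads, 2 bp, chr9:64026247-64026273, plus strand: cataaactattAAAAAttgttaaattc
*Eif5*, 2 reads, 2 bp, chr12:112780434-112780461, plus strand: cagtgaccatgcAAAAggtctgacactt
*Eef2*, 2 reads, 3 bp, chr10:80640484-80640511, plus strand: ccatgtggaccaCGGCaagtccacgctg
*Eef2*, 2 reads, 2 bp, chr10:80643791-80643817, plus strand: tggccctgatggCACtggccccaacat
Runs of A are in *Eif4e*, the cap-binding factor, in *Eif5*, which stimulates GTP hydrolysis at the start codon, and in the 3′ UTR of *Rpl4*. *Rpl10a*, a large subunit gene, has a run of AC, and *Eif4g1*, the scaffold of the cap-binding complex, a run of C in its 3′ UTR. *Eef2*, which moves the ribosome by a codon, has no such run at either region. The eighth, in *Eif1a*, a factor of start codon scanning, lies in the 3′ UTR with 2 reads and a slide of 15 bases.

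Most of the 60 longer regions had the end bases of introns, as did most longer regions of the whole list. The 60 were 78 to 36868 bp long with a median of 739 bp, beside 1376 bp for the 2091 longer regions of the list. GT at the start and AG at the end, which most nuclear introns have, were found in 53 of 60 (88.3%, 77.8% to 94.2%), beside 89.7%. GC-AG ends were found in 2 more, in *Eif4a2*, an RNA helicase of initiation, and in *Eif4g1*, and AT-AC ends, read on the plus strand, in 1, in *Rpl41*. The other 4 regions, in *Mrpl4*, *Mrpl52*, *Eef1b2* and *Rplp0*, had none of these pairs.

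The lengths of these regions overlapped between the families. In cytosolic ribosomal protein genes they were 138 to 2966 bp with a median of 338 bp over 16 regions. In mitochondrial ribosomal protein genes the range was 78 to 3672 bp and the median 832 bp, again over 16. The 25 regions of initiation factor genes ran from 87 to 36868 bp with a median of 1184 bp, and the 3 of elongation factor genes were 81, 351 and 13554 bp long.

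At least 1 end was an annotated splice site of GENCODE vM1 in 58 of the 60 (96.7%, 88.6% to 99.1%), beside 91.4% of all longer Dtt regions. Of these, 7 were annotated introns (11.7%, beside 17.5%), 8 joined annotated sites in a pairing that is not annotated (13.3%, beside 18.0%) and 43 had 1 annotated end (71.7%, 59.2% to 81.5%, beside 56.0%). The 2 without an annotated end (3.33%, 0.919% to 11.4%, beside 8.56%) were in *Rplp0*, which encodes a stalk protein of the large subunit, and in *Rpl41*, a large subunit gene that was not found in this annotation and had 2 reads for 252 bp. The *Rplp0* region, with 2 reads, removed 109 coding bases. By family, 1 annotated end was seen in 14 of 16 longer regions of mitochondrial ribosomal protein genes, 18 of 25 of initiation factor genes, 9 of 16 of cytosolic ribosomal protein genes and 2 of 3 of elongation factor genes.

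**Figure D3:**
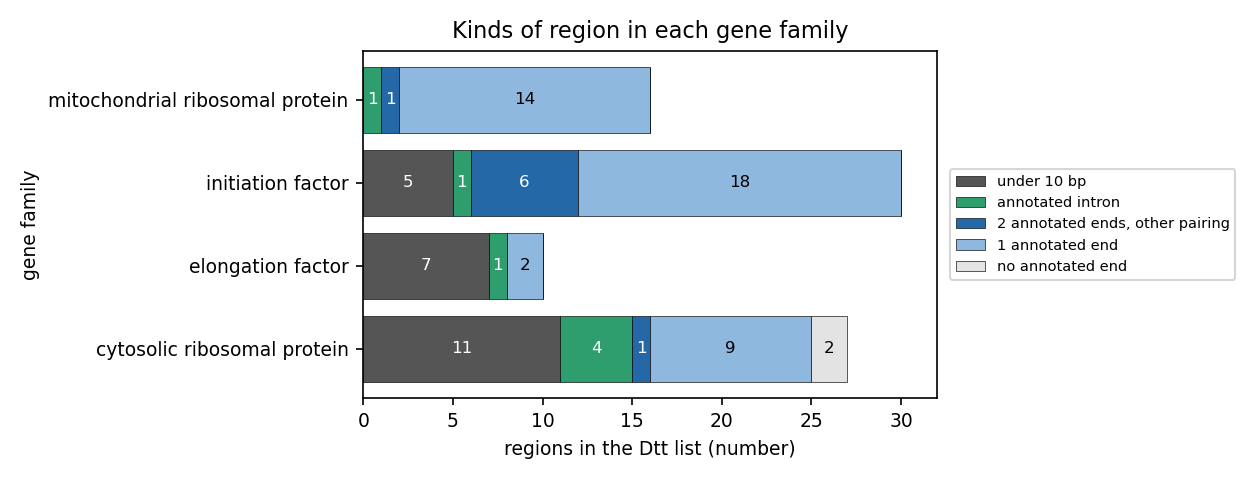
Bars give the number of Dtt regions in each gene family, divided by kind. Regions under 10 bp number 11 of 27 in cytosolic and 0 of 16 in mitochondrial ribosomal protein genes, and 1 annotated end is the most frequent kind in initiation factor genes, with 18 of 30.

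Each of the 7 annotated introns was found in 1 transcript of its gene. They include *Eif4g1* with 4 reads and 247 bp, *Rpl11* with 3 reads and 252 bp, *Mrpl30* with 3 reads and 770 bp, *Eef2k* with 3 reads and 13554 bp, and *Rplp2* with 2 reads and 166 bp. *Rpl11* and *Mrpl30* encode large subunit proteins of the cytosolic and the mitochondrial ribosome, *Rplp2* a stalk protein, and *Eef2k* the kinase that inhibits *Eef2*. In *Rplp2* and *Eef2k* the annotated intron lies in the 5′ UTR.

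The 8 regions with a new pairing of annotated sites each passed over whole exons. *Eif3h*, a subunit of the initiation complex eIF3, had 5 reads for a 7499 bp region that passed over exon 5 of 8, from 51627934 to 51628083 on chromosome 15, a coding exon of 150 bp. *Rpl35*, a large subunit gene, had 5 reads for a 2966 bp region over exon 3 of 4, from 38859627 to 38859708 on chromosome 2, which holds 82 coding bp. *Eif4g2*, a relative of *Eif4g1* that acts in initiation without the cap-binding factor, had 3 reads for a region over exon 3 of 22, which has 66 bp. With 2 reads each, *Eif2s2*, the beta subunit of the factor that brings the initiator tRNA, lost exon 5 of 9 with 95 bp, and *Mrpl30* exon 4 of 6 with 81 bp. *Eif1ad* lost exon 2 of 6, of 219 bp, of which 87 are coding. *Eif4enif1*, which binds *Eif4e* and carries it into the nucleus, had 2 regions from the same donor, of 2 reads each, that passed over 4 exons with 476 coding bp and over 5 exons with 561. Of the 7 with both ends in coding sequence, 4 removed a multiple of 3 (*Eif3h*, *Eif4g2*, *Mrpl30* and the longer *Eif4enif1* region) and 3 did not (*Rpl35*, *Eif2s2* and the shorter *Eif4enif1* region).

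Among the 43 regions with 1 annotated end, the annotated end was the donor in 20 (46.5%, 32.5% to 61.1%, beside 51.2% of such regions in the whole list) and the acceptor in 23. The unannotated end lay within 12 bp of an annotated site of the same kind in 19 of 43 (44.2%, 30.4% to 58.9%), beside 23.0%, and more than 100 bp away in 17. It lay in coding sequence in 15, in an intron in 17 and in UTRs or non-coding exons in the others. The counts over 100 bp and by place were not made for the whole list. The limit of 12 bp was not set in advance, and no other limit was tried. It equals the largest of the 19 distances, and the next distance is 20 bp.

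In all 10 regions with an acceptor within 12 bp, the AG used lay downstream of the annotated AG, inside the coding exon, so the exon was shorter. The direction was not counted over the whole list, so it is not shown to be particular to these genes. In the 9 shown, capitals mark the bases between the annotated AG and the AG used, which the reads lack.
*Eif5b*, 3 reads, chr1:38092826-38092852, plus strand: ttttcctcaaagAAGgaaatatgattc
*Eif3l*, 2 reads, chr15:78907249-78907275, plus strand: tctctctcctagGAGatccgaagcagg
*Rplp1*, 2 reads, chr9:61761755-61761781, minus strand: tttgtgttccagGAGgataagatcaat
*Eif4b*, 2 reads, chr15:101925396-101925423, plus strand: gtgtctctgcagGAAGgatggcaaaaaa
*Mrpl24*, 2 reads, chr3:87726041-87726068, plus strand: atcttcctacagGTAGaaatcttagaag
*Mrpl38*, 2 reads, chr11:115996415-115996442, minus strand: ttccccccccagCTAGcatcccactgga
*Mrpl12*, 2 reads, chr11:120346547-120346573, plus strand: cctggggtagGCAACAGatgcccagcg
*Rps6*, 2 reads, chr4:86501900-86501927, minus strand: tttctttaagGAGAGAAGgatattcctg
*Eif4enif1*, 2 reads, chr11:3135576-3135603, plus strand: cctggcagGTTTCCCTTCAGgaccccag
AG stands at both sites in 10 of 10, which was also not counted over the whole list. The number of bases between them is a multiple of 3 in 4, namely *Eif5b*, a GTPase that joins the subunits, *Eif3l*, a subunit of eIF3, *Rplp1*, a stalk protein, and *Eif4enif1*. In the other 6 it is not, and the reading frame was shifted.

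Of the 9 donors within 12 bp of an annotated donor, 4 lay downstream of it and made the exon longer, and 5 lay upstream. Here capitals mark the bases between the annotated donor and the donor used.
*Mrpl28*, 8 reads, exon longer, chr17:26261645-26261672, plus strand: attctcaagGCAAGCAGGGgttagtgca
*Eif4g1*, 4 reads, exon longer, chr16:20684244-20684271, plus strand: cccgcctatcaGTGAGTgtgaggctcgg
*Eif3k*, 3 reads, exon shorter, chr7:29766684-29766711, minus strand: tgctcaaggGTATCGACAGgtctgaatt
*Mrpl4*, 2 reads, exon shorter, chr9:20812330-20812356, plus strand: gatccccgcagttGgtgagtgatgggt
*Mrpl52*, 2 reads, exon shorter, chr14:55047472-55047498, plus strand: gggagaagcttgcAgtgagtagctggg
*Eef1b2*, 2 reads, exon shorter, chr1:63225458-63225485, plus strand: ccaagaaagctaaAAgtgggtaatcttc
In *Mrpl28* (ENSMUSG00000024181.8, chromosome 17, 26260465 to 26263558) the region of 538 bp, from 26261664 to 26262201, used a GT 10 bases from the annotated donor. The *Eif4g1* region of 220 bp used a GT 6 bases downstream, and *Eif3k*, a subunit of eIF3, lost 10 coding bases. In *Mrpl4* and *Mrpl52*, both large subunit genes of the mitochondrial ribosome, the region is an annotated intron plus the last exon base, and in *Eef1b2*, a subunit of the factor that recharges *Eef1a1*, an annotated intron plus the last 2. *Rps16*, a small subunit gene, *Eif4a2* and a further *Eif4g1* region, with 2 reads each, used donors 2, 4 and 6 bp from the annotated one. *Mrpl4*, *Mrpl52* and *Eef1b2* are 3 of the 4 longer regions without any of the intron end pairs searched. The authors left out regions within 5 bp of a UCSC known junction, yet 11 of the 60 (18.3%, 10.6% to 29.9%, beside 9.52%) lie within 5 bp of a GENCODE vM1 intron at both ends without being equal to it. The UCSC set was not analysed here.

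**Figure D4:**
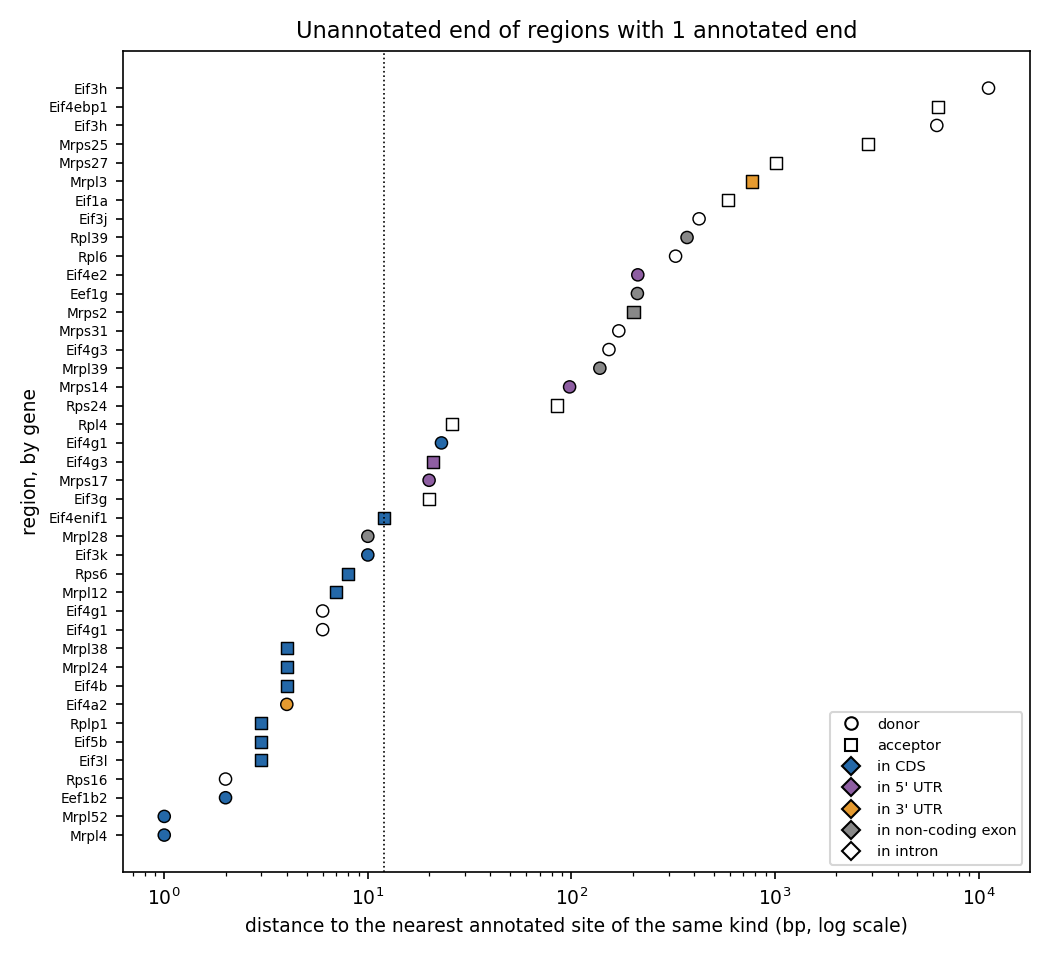
Each of 41 symbols is a longer region with 1 annotated end, placed by the distance in bp on a log scale from its other end to the nearest annotated site of the same kind. The 18 symbols at or left of the dotted line at 12 bp include 9 acceptors, all in coding sequence, and the farthest lies at 11201 bp, in *Eif3h*.

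Far from annotated sites, *Eif3h* had 2 regions of 36868 and 11044 bp, with 2 reads each, that joined an annotated acceptor to donors 6240 and 11201 bp from any annotated donor of the gene. *Eif4ebp1*, which holds *Eif4e* back from initiation, joined an annotated donor to an acceptor 6349 bp away from the nearest, with 2 reads. At 3 reads, *Mrps27*, *Eif1a* and *Mrpl3* used acceptors 1008, 590 and 770 bp from an annotated one, and *Rpl39* and *Eef1g* used donors 370 and 211 bp away. *Rpl4*, a large subunit gene, had 4 reads for an acceptor in an intron, 26 bp from the annotated site.

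The other regions with 1 annotated end had 2 reads each. Donors 20 to 98 bp away were used in *Mrps17*, *Eif4g1* and *Mrps14*, and acceptors 20 to 85 bp away in *Eif3g*, *Eif4g3* and *Rps24*. Of these, the end in *Eif4g1* lay in coding sequence and removed 23 coding bases, and those in *Mrps17*, *Mrps14* and *Eif4g3* lay in the 5′ UTR. *Mrps17* and *Mrps14* encode small subunit proteins of the mitochondrial ribosome, *Eif3g* a subunit of eIF3, and *Eif4g3* a second scaffold of the cap-binding complex. Between 138 and 424 bp away, donors were used in *Mrpl39*, *Eif4g3*, *Mrps31*, *Eif4e2*, *Rpl6* and *Eif3j*, and an acceptor in *Mrps2*. In *Mrps25* the acceptor was 2855 bp away, in an intron.

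For all longer regions with both ends in coding sequence of 1 transcript, the reading frame was kept in 10 of 25 (interval 23.4% to 59.3%), beside 40.8% in the whole list. A region that removed 0 coding bases counts as kept in both shares, and among the 10 this holds for the annotated intron of *Rpl11*. CNGCAG, searched on the strand of the gene within 10 bases of either end, was present at 5 of the 69 regions no wider than 1 junction allows (7.25%, 3.13% to 15.9%), beside 10.1% of such Dtt regions. The 5 are in *Eef1b2*, *Eif4b*, *Mrpl4*, *Mrpl30* and *Eif4enif1*, had 2 reads each and have annotated sites at 1 or both ends. Because many ribosomal protein genes have near-identical copies elsewhere, 20 bases from each side of the 69 gaps were joined and searched on both strands of mm9. None of the 69 joined sequences was found. This search cannot decide about copies, because the lists start from reads that could not be mapped whole to mm9. Reads equal to a copy were therefore mostly removed beforehand. The search also needed identical bases, so a copy with differences would be missed. The wide regions could not be searched this way, and reads of copies within them cannot be told apart.

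Support and number of regions per gene were also counted. At least 3 reads were found for 25 of 83 regions (30.1%, 21.3% to 40.7%), beside 23.6% of all Dtt regions, and at least 4 for 10 of 83 (6.68% to 20.8%, beside 8.33%). *Eif4g1* had 5 regions with 14 reads in all, *Eef1a1* 4 with 11, *Eif3h* 3 with 9, *Rpl4* 3 with 8 and *Eif4enif1* 3 with 6, and 49 of the 62 genes had 1. Of the symbols of protein-coding genes in GENCODE vM1 that fit the rule, 61 of 283 had a region (21.6%, 17.2% to 26.7%), beside 8.71% of all protein-coding symbols. The share was 5 of 9 for Eef, 19 of 57 for Eif, 15 of 77 for Mrpl and Mrps and 22 of 140 for Rpl and Rps symbols. All symbols were counted, whether or not the gene is expressed in these cells. The 140 are every symbol with these letters and not a checked set of ribosomal proteins, so the shares are not like for like.

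Other genes of translation were taken from lists of known members. Among aminoacyl-tRNA synthetases, which load amino acids onto tRNAs, 9 of 20 had a region (45.0%, 25.8% to 65.8%), beside 8.71% of all protein-coding symbols. They had 14 regions and 35 reads, and 5 of the 14 were under 10 bp, beside 17.4% of all Dtt regions. Of other translation genes, 8 of 33 had one (24.2%, 12.8% to 41.0%, beside 8.71%), among them the release factor *Etf1* and the poly-A binding protein *Pabpc1*. These 33 include *Eif2ak3* and the Rps6k kinases left out by the rule, and *Rps6kb2* is among the 8. Of ribosome assembly genes, 4 of 20 had a region (8.07% to 41.6%, beside 8.71%), namely *Bop1*, *Ncl*, *Nop56* and *Rrp1*.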

How the data were processed

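RNA-Seq libraries of Het and KO MEFs were analysed through the region lists deposited for the Tg and Dtt experiments. Per the paper's methods, the authors mapped reads with Bowtie to mm9, both also named in the submitters' processing notes, and to UCSC known junctions, removed the last 2 bases of unmapped reads, split them with at least 11 nt a part and mapped the parts without mismatches within 40 kb. Regions needed 2 reads. The deposited counts are raw numbers of supporting reads, and the splice lengths are deposited values in bp. The KO columns hold 0 numbers, and no per-sample column was left out. Library totals were not used. Single regions of some genes are counted in the totals and not reported here.

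The members and lists were chosen with earlier results of these data known. Genes were found in GENCODE vM1 by symbol for 82 of 83 regions and not found for 1. Every placement of a gap within the listed boundaries, or reached by sliding over equal bases, was compared with the annotated introns and with the bases of mm9. The steps were tested on simulated data. Named regions are *Rps9*, those with 3 or more reads, genes with 2 or more regions, annotated introns, exons passed over and short regions no wider than 1 junction, and the regions with an end near an annotated site or far from it, which were named after their values were seen. With 1 library per group no test was made, and intervals are 95% Wilson or exact Poisson intervals. The limit for the Tg list is 3 regions of its total and not a Wilson bound, which is given for the 0 short regions of mitochondrial genes. Alternatives were other minimum reads, length limits, symbol rules, strands, placements and repeat limits, and 1 region per gene. Sequences were read with pysam 0.24.0, intervals computed with scipy 1.17.1, tables handled in Python 3.11.15 with pandas 2.3.3 and numpy 2.4.6, and plots drawn by matplotlib 3.10.9.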

Additional observations from a re-analysis of the deposited data

How the results depend on the processing

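The number of regions, 83, was 25 when regions needed 3 reads, 6 when they needed 5, and 84 and 78 under the other symbol rules. The share under 10 bp, 27.7%, ran from 22.6% with 1 region per gene to 27.7% under the other length limits, within its interval. With at least 3 reads, 100% of the 19 longer regions had GT-AG ends and 100% had an end at an annotated site, beside 88.3% and 96.7% at 2 reads. The share of short regions wider than 1 junction allows, 60.9%, was 95.7% when sliding was not counted, which by construction adds regions whose gap can slide by 1 base or more. The share at a repeat, 21.7%, was 78.3% with 2 extra bases as the limit. The reads of *Rps9* over those of the next member, 10, were 5.71 for reads summed over a gene and 16 among cytosolic ribosomal protein genes. The share under 10 bp in elongation factor genes went from 7 of 10 to 3 of 6 without *Eef1a1*, chosen after seeing the data. The other alternatives stayed within the 95% intervals. Most regions rest on 2 reads in 1 library, which limits every count. No paired analysis was possible because the KO columns hold no number and the experiments have a single Het library apiece.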
